A study of Mus musculus with 2 samples.

Results

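The 3 longest stretches of the mouse genome with raised 5-hydroxymethylcytosine (5hmC) in kidney DNA lay on chromosome 17 (27000001 to 30800000, 3.8 Mb), chromosome 11 (115000001 to 118400000, 3.4 Mb) and chromosome 2 (165000001 to 168200000, 3.2 Mb), all in build mm9. Together they held 10.4 Mb, or 0.421% of the autosomal span, and 416 of the 98900 autosomal bins of 25 kb. They are the longest unbroken runs of 100 kb bins whose log2 ratio of antibody-enriched DNA to input passed 0.5, a ratio of 1.41, with an interval above 0. The same fragments that chose them are described here, so their level is a description and carries no test. The DNA came from flash-frozen kidneys of male C57BL/6 mice, an inbred strain, aged 6 weeks, and the labels give no number of animals. It was profiled by hMeDIP-seq, in which fragments bearing the mark are enriched by a 5hmC antibody (from Active Motif) before sequencing. The groups are 1 hMeDIP library and 1 input library made without antibody, both from the same strain, sex, age and organ. No library was replicated, so each difference is between these libraries, and every 95% interval below covers counting error only.

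5hmC arises when TET enzymes oxidise 5-methylcytosine, and in mammalian tissues it is known to mark enhancers and the bodies of active genes, with little at the unmethylated CpG islands of promoters. Antibody enrichment reports its density relative to the rest of the genome. In DNA from a whole organ, more cells with the mark and more of the mark per cell cannot be told apart. The chromosome 17 stretch is known to hold Itpr3 (a calcium channel of the endoplasmic reticulum), Fkbp5 (a co-chaperone of the glucocorticoid receptor), Mapk14 (the stress kinase p38 alpha), Cdkn1a (the cell cycle inhibitor p21) and the kinase gene Pim1, in this order in RefSeq. The chromosome 11 stretch is known for Grb2 (an adaptor of receptor signalling), Itgb4 (an integrin subunit), Socs3 (a suppressor of cytokine signalling) and Timp2 (an inhibitor of matrix metalloproteinases). The chromosome 2 stretch is known for Eya2 (a transcriptional coactivator), Sulf2 (a heparan sulfate sulfatase), Prex1 (a Rac activator), Cebpb (a transcription factor) and Ptpn1 (a tyrosine phosphatase). No gene annotation or genome sequence of mm9 was used here, so no gene is assigned to a bin, dip or peak below, and base composition was not analysed.

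There were 11424027 fragments from hMeDIP and 8316507 from input. Each ratio sets the percentage of all hMeDIP fragments that fell in a region over the same percentage for input, so a ratio of 1 is the genome mean of these libraries. The chromosome 17 domain held 44252 hMeDIP and 12687 input fragments, giving 2.54 (2.49 to 2.59). On chromosome 11 the domain held 43035 and 11055 fragments, giving 2.83 (2.78 to 2.89). On chromosome 2 it held 41168 and 11067 fragments, giving 2.71 (2.65 to 2.77). The shortest of the 3 domains was thus not the lowest, and the intervals of chromosomes 17 and 2 did not overlap. The difference from the autosomes was mostly on the hMeDIP side. The median 25 kb bin held 276, 293 and 301 hMeDIP fragments on chromosomes 17, 11 and 2, against 89 over all autosomal bins. The median input count was 83, 81 and 87.5, against 90 over all autosomal bins.

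**Figure D1:**
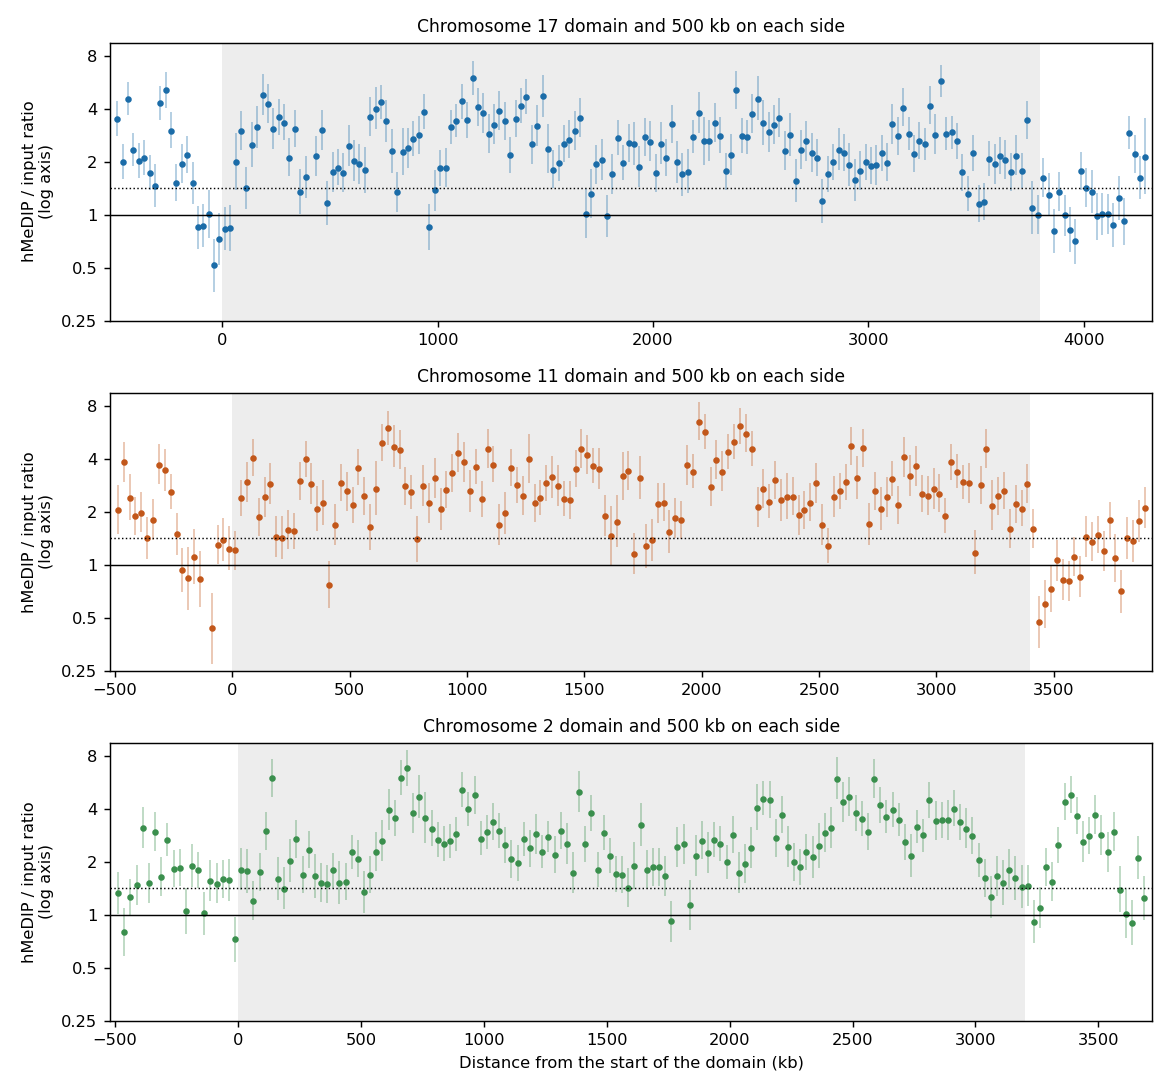
Ratio of hMeDIP to input share in 25 kb bins (log axis) across each domain (grey) and 500 kb on each side, against the distance from the domain start in kb; points are bins with at least 20 input fragments and bars their 95% counting intervals, the solid line is the genome mean of 1 and the dotted line the ratio of 1.41. Most bins inside lie between 1 and 4 and only 6 points inside fall below 1, while high bins reappear outside several edges.

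Inside the domains the raised level was broad and uneven. At 25 kb, 135 of 151 bins with at least 20 input fragments were high on chromosome 17 (log2 ratio above 0.5 with its interval above 0), 127 of 136 on chromosome 11 and 122 of 128 on chromosome 2. Over all autosomal bins 22.6% were high, and over the bins of the other long high domains 86.2%. The rule itself required every 100 kb bin to be high, so nothing is read from these counts. The median bin ratio was 2.46 (quartiles 1.89 and 3.16) on chromosome 17, 2.65 (2.16 and 3.43) on chromosome 11 and 2.54 (1.85 and 3.39) on chromosome 2, against 0.712 (0.376 and 1.33) over the autosomes. Ratios of 4 or more occurred in 14 of 151, 20 of 136 and 17 of 128 bins, against 1.13% of all autosomal bins. Ratios from 1 to 2 occurred in 47, 27 and 39 of the same bins. The chromosome 11 domain therefore had the fewest bins in the lower range. No bin was low, that is below -0.5 on the log2 scale with its interval below 0, a class that held 49.3% of all autosomal bins. Since the rule chose on the ratio, nothing is read from the contrasts with all autosomal bins in this paragraph.

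The spread within a domain was about 3 times what counting gives. The SD of the log2 bin ratio was 0.57 on chromosome 17, 0.56 on chromosome 11 and 0.57 on chromosome 2, where the counts alone would give 0.18 each. When the ratio was computed from fragments of each strand separately, bins correlated at 0.687, 0.724 and 0.738 between strands (across bins of the same libraries). The highs and lows were local. Between neighbouring bins the log2 ratio correlated at 0.470, 0.396 and 0.597 on chromosomes 17, 11 and 2, across 149, 135 and 127 pairs of bins that share libraries. At 100 kb the values were 0.179, -0.0289 and 0.304, and at 500 kb -0.105, -0.0542 and -0.129. Structure on chromosome 2 thus reached farther, in these values, than on chromosome 11.

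Read in 500 kb segments from its start, the chromosome 17 domain stood at 2.43, 2.42, 3.49, 2.19, 2.75, 2.25 and 2.71, with 1.78 in the last 300 kb. Its crest, the third segment (28000001 to 28500000), carried 118 peaks of the authors' list, which covered 42.0% of the sequence, against 60 peaks and 14.9% in the fourth segment beside it. The chromosome 11 domain was flatter in the middle, with 2.26, 3.20, 2.93, 2.65, 3.40 and 2.75, and 2.62 in the last 400 kb. Its crest at 117000001 to 117500000 held 113 peaks. The chromosome 2 domain had a pair of crests, with 2.03, 3.46, 2.67, 2.01, 3.06 and 3.50, and 1.64 in the last 200 kb. The crests at 165500001 to 166000000 and 167500001 to 168000000 held 123 and 124 peaks, and the saddle between them at 166500001 to 167000000 held 50. In all 3 domains the segments with the most peaks also had the highest ratio, and fragments in peaks count in that ratio.

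Between peaks the same segments differed less. Counting only fragments outside peaks, the segments of the chromosome 17 domain ran from 1.32 (1.22 to 1.43) in the last to 1.81 (1.68 to 1.95) at the crest. On chromosome 11 they ran from 1.43 (1.34 to 1.53) to 1.75 (1.62 to 1.88), and on chromosome 2 from 1.33 (1.20 to 1.47) to 1.76 (1.63 to 1.90). The crest of chromosome 17 was thus the highest segment between the peaks as well, by less than in the total. On chromosome 11 the second segment, at 1.72 (1.60 to 1.85), came close to the crest. The first crest of chromosome 2 stood at 1.68 (1.56 to 1.81) and the segment after it at 1.67 (1.57 to 1.79). The crests were named by a ratio that counts these fragments.

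**Figure D2:**
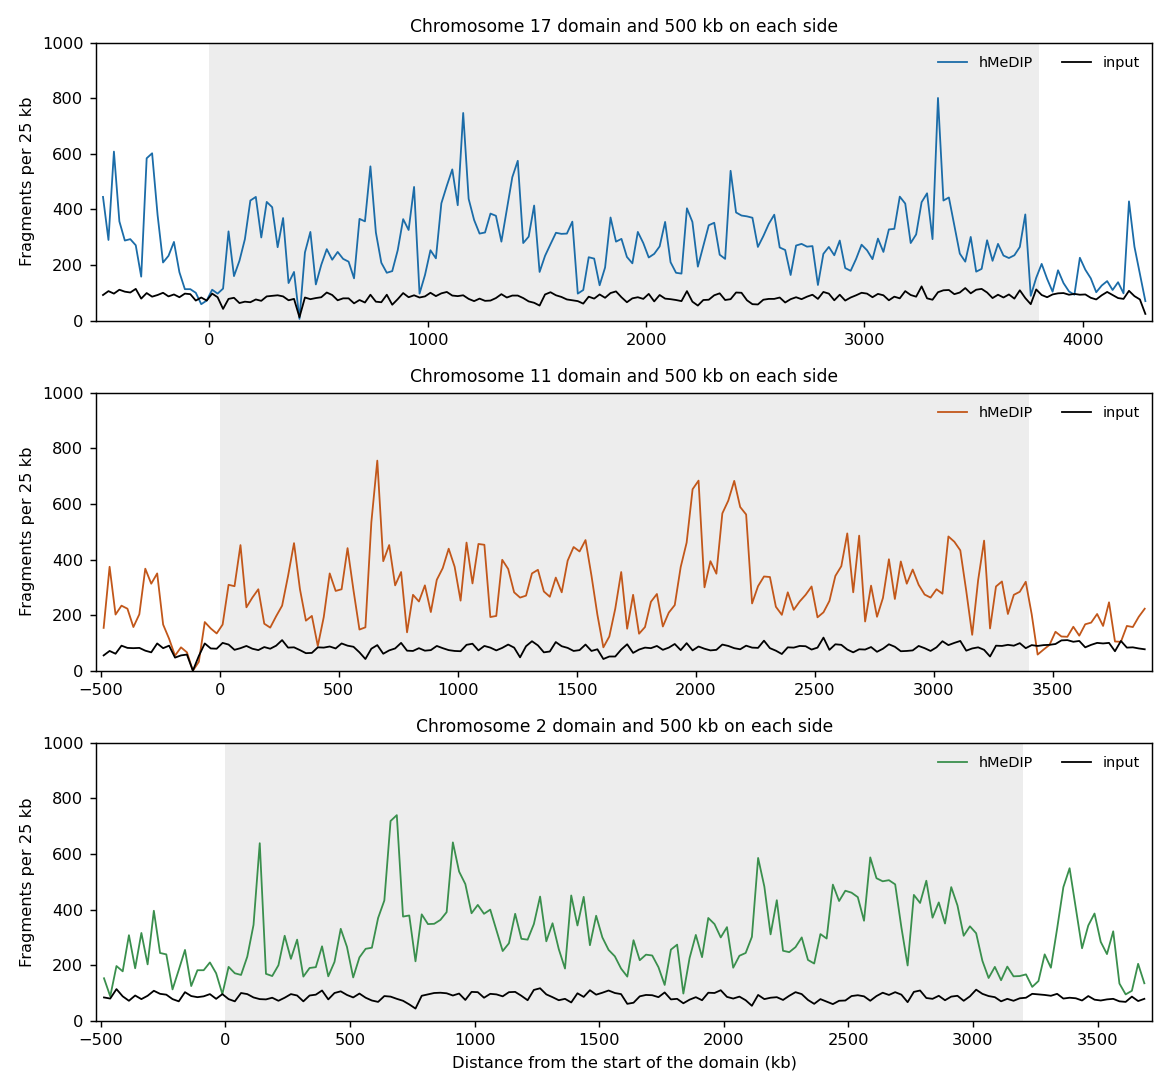
Fragments per 25 kb in the hMeDIP library (coloured) and the input library (black) across each domain (grey) and 500 kb on each side, against the distance from the domain start in kb. Inside the domains the input line has medians of 81 to 87.5 and reaches at most 123, while the hMeDIP line reaches 740 to 801, and both drop together at 400 kb on chromosome 17 and just before the chromosome 11 domain.

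The highest bins were largely covered by peaks, over 62.4% to 91.9% of the sequence in the 3 highest of each domain. On chromosome 17 the top bin was 28150001 to 28175000, where 747 hMeDIP fragments stood against 91 of input, or 5.98 (4.80 to 7.51). Next came 30325001 to 30350000 at 5.72 (4.65 to 7.10), where 6 peaks covered 91.9% of the bin, and 29375001 to 29400000 at 5.10 (4.01 to 6.56). The top bin holds the peak that was both the widest and the highest scoring of that domain, 28150272 to 28158077, of 7806 bp. That peak counted 292 hMeDIP against 26 input fragments, or 8.18 (5.47 to 12.7), and the authors' score ranked it 55 in the whole list. This score is the authors' own and serves here to rank peaks only.

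On chromosome 11 the top bins were 116975001 to 117000000 at 6.51 (5.11 to 8.41), 117150001 to 117175000 at 6.14 (4.87 to 7.83) and 115650001 to 115675000 at 5.98 (4.81 to 7.51). The first of these lies beside the start of the crest segment and the next within it. The widest and highest scoring peak of the domain, 117166818 to 117180063, spanned 13246 bp, rank 6 by width among all 92654 peaks. It counted 447 hMeDIP against 47 input fragments, or 6.92 (5.12 to 9.56). Peaks of 5 kb or more numbered 10 of 625 here, 9 of 577 on chromosome 2 and 5 of 630 on chromosome 17. The share over the whole list is not given here, so nothing is read from these counts.

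On chromosome 2 the top bins were neighbours, 165675001 to 165700000 at 6.82 (5.40 to 8.71) and 165650001 to 165675000 at 6.02 (4.81 to 7.60). They form the strongest 50 kb of that domain. The next, 165125001 to 165150000 at 5.96 (4.71 to 7.64), lay near the domain start, between bins at 2.99 (2.35 to 3.84) and 1.60 (1.21 to 2.12). Here the highest scoring peak (165676464 to 165683023, 6560 bp, ratio 10.3, 6.39 to 17.7) and the widest (165649697 to 165657812, 8116 bp, ratio 5.82, 4.07 to 8.58) were different peaks of the same crest.

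Over 250 kb windows moved by 25 kb, the highest stood 2.25 times above the lowest on chromosome 17, 2.45 times on chromosome 11 and 2.45 times on chromosome 2. The highest were 28075001 to 28325000 at 3.88 (3.60 to 4.18), 116975001 to 117225000 at 4.80 (4.46 to 5.17) and 167425001 to 167675000 at 4.18 (3.89 to 4.51). The lowest were 30425001 to 30675000 at 1.73 (1.60 to 1.86), 116675001 to 116925000 at 1.96 (1.80 to 2.12) and 165300001 to 165550000 at 1.71 (1.58 to 1.85). On chromosome 11 the lowest window ended 50 kb before the highest began, so the extremes of that domain were close neighbours. The highest windows held 61, 73 and 70 peaks and the lowest 22, 32 and 25.

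Bins below the genome mean were few at this scale. A dip is a run of 25 kb bins with a ratio below 1, and there were 4 such bins on chromosome 17, 1 on chromosome 11 and 1 on chromosome 2. Of all autosomal bins 63.7% were below 1, and of the bins in the other long high domains 2.45%. The rule required every 100 kb bin to be high, so nothing is read from the contrast with all autosomal bins. The shares on chromosomes 17, 11 and 2 were 2.65%, 0.735% and 0.781%, above those of 50, 22 and 22 of the 77 other domains. The interval of each of the 6 bins reached above 1, so none was resolved from the genome mean at this depth. No dip overlapped a peak. In 10 kb bins 19 of 364, 11 of 327 and 6 of 310 stood below 1 on chromosomes 17, 11 and 2, and with ratios scaled to the fragments outside peaks no 25 kb bin did.

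The widest dip on chromosome 17 sat at its very start, 27000001 to 27050000, where 208 hMeDIP fragments stood against 181 of input, or 0.837 (0.682 to 1.03). It belongs to a peak-free stretch of 198 kb that crosses the edge of the domain (26873118 to 27071000), with a ratio of 0.824 (0.739 to 0.918). The second, 27950001 to 27975000, was an inner dip with 1 steep side: 97 hMeDIP and 83 input fragments gave 0.851 (0.628 to 1.15), where the bin before stood at 3.85 and the bin after at 1.37. The low reached past the bin, since the peak-free gap around it (27949691 to 27994954, 45.3 kb) stood at 0.835 (0.667 to 1.05). The third, 28775001 to 28800000, was a shallow one at 0.984 (0.747 to 1.30). At 28675001 to 28700000, 75 kb before it, another bin without peaks stood at 1.01 (0.734 to 1.39), so the lower stretch of that domain has a pair of troughs.

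The chromosome 11 dip, 115400001 to 115425000, was the deepest of the single bins, where 89 hMeDIP fragments stood against 84 of input, or 0.771 (0.566 to 1.05). Of its 5 steps of 5 kb, 4 lay below 1. The bins beside it stood at 2.24 and 1.69. The chromosome 2 dip, 166750001 to 166775000, lay in the saddle named above, with 129 and 102 fragments and a ratio of 0.921 (0.705 to 1.21), between bins at 1.65 and 2.42. In 5 kb steps it fell below 1 in 3 of 5. The next lowest bins of these 2 domains stayed above 1. On chromosome 11 they stood at 1.16 (0.889 to 1.51, from 116700001) and 1.17 (0.881 to 1.57, from 118150001), each with 2 peaks. On chromosome 2 they stood at 1.13 (0.817 to 1.58, from 166825001) and 1.20 (0.931 to 1.56, from 165050001).

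A further bin of chromosome 17, 27400001 to 27425000, held only 6 hMeDIP and 12 input fragments, below the minimum of 20. Its ratio of 0.364 (0.112 to 1.05) is not counted as a dip. Both libraries were thin there, with at most 5 input fragments in any 5 kb, while the bins before and after held 78 and 83 input fragments and stood at 1.63 and 2.15.

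Most bins that were not high were not dips but bins between 1 and the threshold. They numbered 12 of 16 on chromosome 17, 8 of 9 on chromosome 11 and 5 of 6 on chromosome 2. Bins without any peak numbered 9 of 151, 4 of 136 and 4 of 128, against 64.3% of all autosomal bins. The rule required every 100 kb bin to be high, so nothing is read from this contrast. The share in the other long high domains is not given here. Some bins without a peak were high all the same, 1 on chromosome 17, 2 on chromosome 11 and 1 on chromosome 2. The longest run of high bins reached 975 kb on chromosome 17 (28800001 to 29775000), 800 kb on chromosome 11 (115800001 to 116600000) and 1225 kb on chromosome 2 (165525001 to 166750000).

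The authors' list placed 630 peaks in the chromosome 17 domain, 625 in that of chromosome 11 and 577 in that of chromosome 2. These 1832 peaks are 1.98% of the autosomal peaks. The density was 166, 184 and 180 peaks per Mb, and peaks covered 24.0%, 28.5% and 28.5% of the sequence. Median widths were 1201, 1244 and 1303 bp. Peaks held 54.2%, 59.4% and 58.7% of the hMeDIP fragments of their domain and 24.4%, 28.1% and 28.5% of the input fragments. Pooled over the peaks of a domain the ratio was 5.64 (5.43 to 5.86), 6.00 (5.78 to 6.23) and 5.57 (5.37 to 5.78). The interval of chromosome 11 met the others only at its lower end.

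Peaks followed each other at short and very unequal gaps. From the end of a peak to the start of the next, the median gap was 1823 bp on chromosome 17 (quartiles 523 and 5561), 1478 bp on chromosome 11 (434 and 4749) and 1603 bp on chromosome 2 (411 and 4841). Over all autosomal peaks the median was 3477 bp and over the 77 other high domains of 1 Mb or more 2041 bp. Gaps under 1 kb made up 36.2%, 41.0% and 40.5% of the gaps, against 34.3% in the other domains and 26.2% over all autosomes. Mean gaps were far above the medians, at 4397, 3868 and 3945 bp. Gaps of 20 kb or more were 17 of 629, 16 of 624 and 22 of 576, and took 15.5%, 15.1% and 18.4% of the domain sequence. Their shares of the gaps were 2.70%, 2.56% and 3.82%, against 5.19% in the other domains and 17.3% over all autosomes. The domains were chosen for a high hMeDIP ratio, and peaks mark such enrichment. Nothing is therefore read from the contrasts of gap length with all autosomes.

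**Figure D3:**
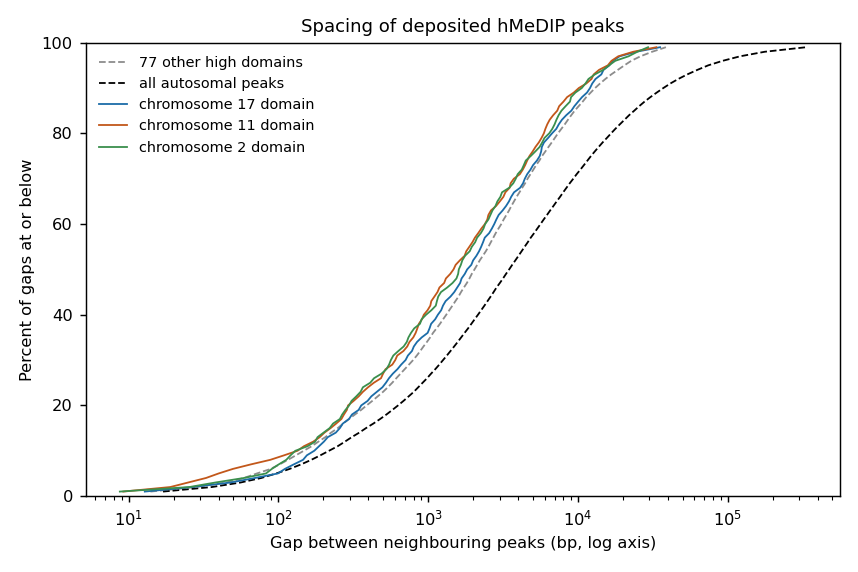
Percent of gaps between neighbouring peaks at or below a given length (bp, log axis) in each domain, in the 77 other high domains and over all autosomal peaks. At the median the 3 domains lie at 1478 to 1823 bp, to the left of the other high domains (2041 bp) and all autosomal peaks (3477 bp), while among the shortest gaps the curves cross. The domains were chosen for a high hMeDIP ratio, so nothing is read from the contrast with all autosomal peaks.

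Chained by gaps under 1 kb, the peaks of chromosome 17 formed 402 islands, of which 272 were single peaks and 10 held 5 or more. On chromosome 11 there were 369 islands with 18 of 5 or more peaks, and on chromosome 2 344 with 16. The longest island of all 3 domains was 117162495 to 117196809 on chromosome 11, where 11 peaks chained over 34.3 kb with a ratio of 5.87 (4.83 to 7.20). On chromosome 17 the longest spanned 29.3 kb (30323509 to 30352788, 8 peaks, 5.46, 4.52 to 6.64). On chromosome 2 it spanned 20.8 kb (165129793 to 165150601, 7 peaks, 7.32, 5.59 to 9.73), around the high bin near the domain start.

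The longest gaps did not always mark low 5hmC. On chromosome 17 they were 28661909 to 28723664 (61.8 kb) with a ratio of 1.25 (1.03 to 1.52), 28766450 to 28819734 (53.3 kb) at 1.12 (0.927 to 1.36) and 30495752 to 30544048 (48.3 kb) at 1.15 (0.970 to 1.37). The middle one surrounds the shallow dip. On chromosome 11 they were 115197348 to 115246132 (48.8 kb) at 1.33 (1.10 to 1.62), 115398889 to 115444043 (45.2 kb), around the dip, at 0.859 (0.684 to 1.08), and 117505344 to 117548598 (43.3 kb) at 1.36 (1.13 to 1.65). On chromosome 2 they were 168108030 to 168151420 (43.4 kb) at 1.62 (1.31 to 2.02), 166737680 to 166776199 (38.5 kb), around the dip, at 1.06 (0.853 to 1.32), and 165043676 to 165078956 (35.3 kb) at 1.28 (1.04 to 1.59). Of these 9 gaps, 8 were above 1 and 5 had intervals above 1, and the longest of chromosome 2 was the highest of all.

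Pooled over all sequence outside peaks, the ratio was 1.54 (1.50 to 1.58) on chromosome 17, 1.60 (1.56 to 1.64) on chromosome 11 and 1.56 (1.52 to 1.61) on chromosome 2, so the 3 intervals overlapped. Among bins with at least 20 input fragments outside peaks, 144 of 149, 127 of 132 and 121 of 123 stood above 1. The share over all autosomal bins is not given here. The rule chose the domains on a ratio that counts these fragments, so nothing is read from these counts. The ratio was lower farther from peaks. At 500 to 1000 bp it was 1.80 (1.68 to 1.92), 1.91 (1.78 to 2.05) and 1.83 (1.71 to 1.97) on chromosomes 17, 11 and 2. At 5 to 10 kb it was 1.47 (1.38 to 1.57), 1.47 (1.37 to 1.58) and 1.43 (1.33 to 1.53). At 10 to 20 kb it was still 1.31 (1.20 to 1.45), 1.34 (1.22 to 1.49) and 1.34 (1.20 to 1.50). The first 500 bp broke this order, with 1.41 (1.32 to 1.49), 1.53 (1.44 to 1.63) and 1.44 (1.35 to 1.53).

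At the same distance from a peak, up to 20 kb, sequence in the domains stood above that of the autosomes as a whole. At 5 to 10 kb the autosomal ratio was 1.04 (1.03 to 1.04) and at 10 to 20 kb 0.892 (0.890 to 0.895). The other high domains, at 1.30 (1.29 to 1.32) and 1.18 (1.17 to 1.20), lay between at these distances. Beyond 20 kb few fragments remained, 497 hMeDIP on chromosome 17 at 0.932 (0.815 to 1.07), 95 on chromosome 11 at 1.03 (0.747 to 1.43) and 36 on chromosome 2 at 1.46 (0.805 to 2.72). There the other high domains stood at 1.10 (1.07 to 1.13), above chromosome 17, and the autosomes at 0.726 (0.724 to 0.728). The domains were chosen on a ratio that counts these fragments, so the distance is matched but the choice is not removed.

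**Figure D4:**
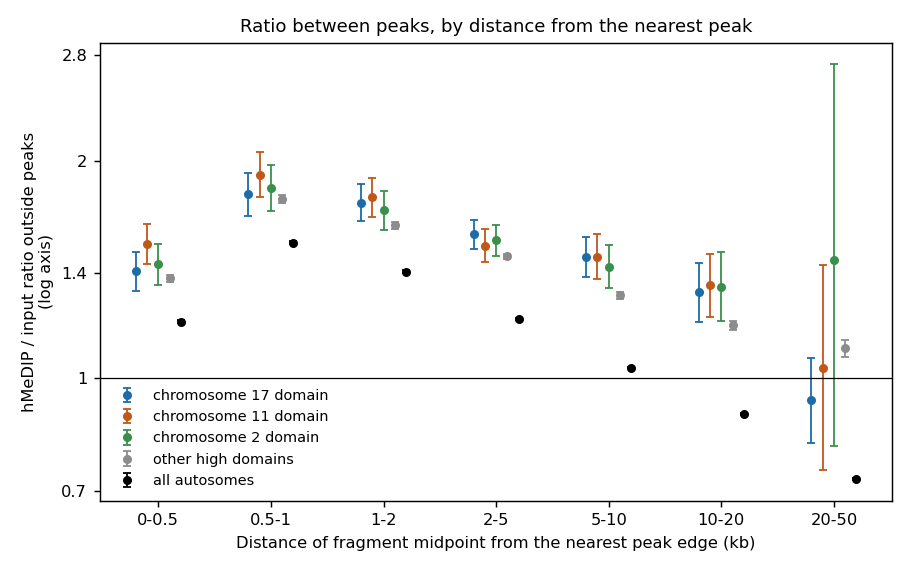
Ratio of hMeDIP to input share outside peaks (log axis) by distance of the fragment midpoint from the nearest peak edge (kb), with 95% counting intervals, in the 3 domains, the other high domains and all autosomes. From 0.5 kb outward to 20 kb the points of the domains fall from about 1.8 to 1.3 and lie above those of all autosomes (1.54 to 0.892).

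Very short gaps went the other way. In gaps under 500 bp the ratio was 0.736 (0.541 to 1.002) on chromosome 17, 0.923 (0.689 to 1.24) on chromosome 11 and 0.671 (0.503 to 0.896) on chromosome 2. These gaps took 0.877%, 0.989% and 1.04% of the sequence and 88, 109 and 95 hMeDIP fragments. In gaps of 2 to 5 kb the ratio was 1.75 (1.65 to 1.87), 1.71 (1.61 to 1.83) and 1.83 (1.71 to 1.95). In those of 20 kb or more it was 1.30 (1.23 to 1.38), 1.37 (1.29 to 1.46) and 1.42 (1.35 to 1.50). The deposited stretches are 350 bp long, and many of these gaps are shorter than that; the part of this in the low values was not tested.

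**Figure D5:**
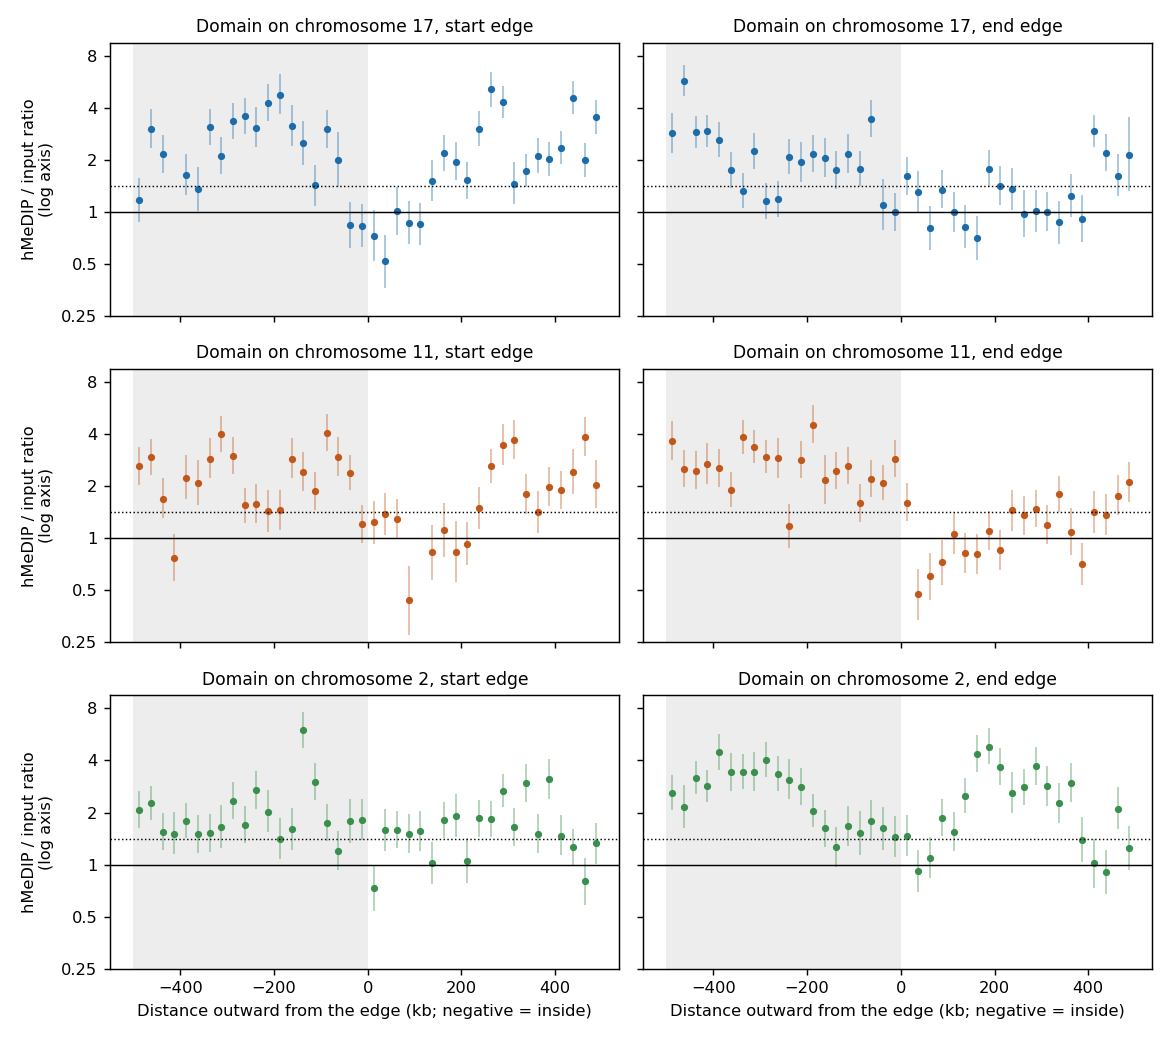
Ratio of hMeDIP to input share in 25 kb bins (log axis) from 500 kb inside (grey) to 500 kb outside each of the 6 edges, with 95% counting intervals; the solid line is 1 and the dotted line 1.41. The end of the chromosome 11 domain drops from 2.88 to 0.474 within 50 kb, while the chromosome 2 edges pass through a narrow low of a few bins and rise again.

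The edges were of different kinds. The rule made the first 100 kb outside fail the threshold, so the sign of each step there is fixed by it and only the size and what follows are described. The 100 kb bins just inside the threshold, the lowest within each domain, stood at 1.55 (chromosome 17, from 30500001), 1.63 (chromosome 11, from 116700001) and 1.60 (chromosome 2, from 168100001). Those just outside it stood at 1.34 (1.17 to 1.52) before the chromosome 2 domain, 1.33 (1.17 to 1.51) after it and 1.26 (1.11 to 1.44) after that of chromosome 17. The bins before chromosomes 17 and 11 and after chromosome 11 stood at 0.778 (0.666 to 0.908), 1.16 (1.002 to 1.34) and 0.855 (0.742 to 0.986).

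The end of the chromosome 11 domain was the most abrupt. The last peak ended 0.084 kb inside the edge, and the last bin inside stood at 2.88 (2.25 to 3.72) with 320 hMeDIP fragments on 81 of input. The first bin outside stood at 1.61 (1.25 to 2.08), and the next 3 at 0.474 (0.335 to 0.668), 0.601 (0.438 to 0.824) and 0.728 (0.540 to 0.981). Input stayed level across this fall, at 92, 89, 92 and 93 fragments per bin. From the outer 100 kb inside to the first 100 kb outside the log2 ratio dropped by 1.34 (SE 0.13 from counting). The 5 successive 100 kb steps outside were 0.855, 0.943, 1.27, 1.20 and 1.65, a slow return without reaching the level of the domain.

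At its start the chromosome 11 domain was bordered by a low stretch in thin sequence. The step was 1.15 (SE 0.14) on the log2 scale and 0.44 (SE 0.19) with 50 kb on each side, and the 100 kb values going outward were 1.16, 0.928, 2.05, 2.18 and 2.53. The lowest bin, 114900001 to 114925000, counted 32 hMeDIP against 53 input fragments, or 0.440 (0.274 to 0.694). The bin outside it, 114875001 to 114900000, held 0 fragments in both libraries and has no ratio. Past this stretch the ratio was back at 2.53 (2.21 to 2.91), with 12 peaks per 100 kb.

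The chromosome 17 domain started within a trough, and at its end the ratio fell before the edge was reached. At the start the lowest bin outside, 26950001 to 26975000, counted 59 hMeDIP against 83 input fragments, or 0.517 (0.364 to 0.731), and the step was 1.002 (SE 0.15), or 0.44 (SE 0.23) with 50 kb on each side. The 100 kb values outward were 0.778, 1.61, 3.43, 1.85 and 3.05, with 70 peaks in the 500 kb, a pooled ratio of 2.20 (2.09 to 2.32). The highest bin there reached 5.10 (4.06 to 6.46), as much as the third highest bin inside. At the end the last peak lay 51.5 kb inside, the bin from 30725001 stood at 3.43, the last pair of bins stood at 1.10 (0.781 to 1.55) and 1.001 (0.780 to 1.29), and the first bin outside at 1.61 (1.26 to 2.09). With 50 kb instead of 100 kb on each side this step turned from 0.51 to -0.50. Outward the values were 1.26, 1.07, 1.19, 1.004 and 2.30.

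At the chromosome 2 domain the steps were 0.27 (SE 0.13) at the start and 0.27 (SE 0.14) at the end. With 50 kb on each side the start step was 0.69 (SE 0.20). At that width the starts of chromosomes 17 and 11 stood at 0.44 (SE 0.23) and 0.44 (SE 0.19), so the counting errors do not resolve their order. Before the chromosome 2 domain, the 100 kb values outward were 1.34, 1.56, 1.92, 2.23 and 1.23, and only 2 of 20 bins stood below 1. The lower of them, 164975001 to 165000000, touched the edge with a ratio of 0.728 (0.543 to 0.976). After it they were 1.33, 3.23, 3.19, 2.39 and 1.30, with 76 peaks in 500 kb and a pooled ratio of 2.28 (2.16 to 2.41). That stretch held the highest bin, 168375001 to 168400000, at 4.82 (3.82 to 6.14).

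High bins lay within 500 kb of each of the 6 edges. They numbered 15 of 20 before and 7 of 20 after chromosome 17, 10 of 19 before and 6 of 20 after chromosome 11, and 14 of 20 on each side of chromosome 2. Over all autosomal bins the share was 22.6%. The 500 kb ratio ran from 1.17 (1.10 to 1.24), after chromosome 11, to 2.28.

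How long a domain is depends on a single 100 kb bin at some of these edges. When 1 failing bin was bridged, an alternative chosen after seeing the data, the run on chromosome 17 grew by 2.7 Mb at its start to 6.5 Mb, that on chromosome 2 by 0.8 Mb at each end to 4.8 Mb, and that on chromosome 11 did not change. The longest run was then one of 6.9 Mb on chromosome 4, and the 3 domains took ranks 3, 4 and 9. With 2 bins bridged they spanned 6.5, 6.3 and 4.2 Mb. Scaled to the fragments outside peaks, which multiplies every ratio by 1.32, the runs that hold them spanned 3.9 Mb on chromosome 17, 3.5 Mb on chromosome 11 and 4.9 Mb on chromosome 2, at ranks 6, 9 and 2, behind a run of 9 Mb on chromosome 4.

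Set beside the 77 other high runs of 1 Mb or more, of which the longest was 3 Mb, the 3 domains ranked high in total ratio as well as in length. Their ratio lay above that of 61 (chromosome 17), 73 (chromosome 11) and 68 (chromosome 2) of the 77, whose median was 2.33 (range 1.75 to 3.17). Peak density lay above 58, 69 and 67 of them, with a median of 148 per Mb. The ratio outside peaks lay above 67, 73 and 71, with a median of 1.44. The ratio pooled over peaks lay above 50, 68 and 46. Median peak width lay above 24, 38 and 61 of 77, and the SD of the bins above 36, 31 and 35. All of these runs were chosen by the same threshold on the same libraries, and the ranks are given with no test. A run lasts only while its bins stay above that threshold, so its length and its ratio are not independent, and no trait beyond length is read from these ranks.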

How the data were processed

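Genomic DNA of mouse kidney was measured in 1 hMeDIP and 1 input library. Per the submitters' processing notes, CASAVA, Bowtie 1.0.0 and build mm9 were used, with settings not given in the sources used here. Grouping follows the antibody label. The authors deposited 1 position file per library, whose lines give a stretch of 350 bp and a read count. Each line was taken as 1 fragment, placed by its midpoint. MACS made the peak list, per the file headers, and its deposited score per peak was used to rank and filter only. The header's range after the word hMeDIP is not explained, so the libraries behind the peak list are not known.

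Counts and exact conditional binomial (Clopper-Pearson) 95% intervals were computed with Python 3.11.15, numpy 2.4.6, pandas 2.3.3 and SciPy 1.17.1, and plotted with matplotlib 3.10.9. The intervals and the calls of high and low bins were tested on simulated counts. Reads carried no molecular identifiers, so they may not be independent molecules. A median autosomal 25 kb bin held 90 input and 89 hMeDIP fragments.

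The domains were rebuilt from 100 kb bins with at least 50 input fragments and matched the given coordinates. Members, lists and rules were chosen with earlier results of these data known. Named per domain are the 3 highest and 3 lowest bins, every dip, the 3 longest gaps, the widest and the highest scoring peak, and the 100 kb steps outside. Other regions were chosen after seeing values. The genes named as background were picked from general knowledge, and their order was read from the RefSeq table of GRCm38.p6, in which all 23 names looked up matched. That build differs from mm9, so it gave no position. No significance test between the libraries was run, since there is 1 library per group. Alternatives covered scaling, reads, fragment length, bins, thresholds, peak lists and edge width.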

Additional observations from a re-analysis of the deposited data

Results flagged for a closer look

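The number of reads per position was not used in the comparisons. Positions with 2 or more reads made up 1.61% (95% interval 1.49 to 1.73) of hMeDIP positions in the chromosome 17 domain, against 0.189% (0.121 to 0.281) of input positions. In the chromosome 11 domain they made up 1.67% (1.55 to 1.79) against 0.317% (0.221 to 0.440), and in the chromosome 2 domain 1.76% (1.63 to 1.89) against 0.334% (0.236 to 0.461). They are listed because the hMeDIP share lay above the input share. Over all positions the shares were 1.33% and 0.384%. Weighting by reads left the ratios of the 3 domains within their intervals.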

How the results depend on the processing

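No paired analysis was possible because each group has 1 library. Of 96 values under an alternative, 60 stayed within their interval or within 1.5 times the reported value, 35 moved and 1 reversed. The share of high bins stayed within 1.5 times under all 7 alternatives in each domain. Weighting by reads and fragments of 150 bp moved no ratio. Scaled to the fragments outside peaks, the ratios became 3.35, 3.74 and 3.58 on chromosomes 17, 11 and 2, those outside peaks 2.03, 2.11 and 2.06, and the share of bins below 1 became 0% in each. With the higher scoring part of the peaks the ratio outside peaks was 1.80, 1.87 and 1.84 and the median gap 3206, 2503 and 2492 bp. Merging peaks within 1 kb gave 4115, 3925 and 3872 bp, and distances between midpoints were 3503, 3253 and 3375 bp. Bins below 1 were 2.65%, 0.735% and 0.781% as reported, 5.22%, 3.36% and 1.94% in 10 kb bins, and 0% in each below -0.5. Moved by part of a bin, the grid gave 2.65% on chromosome 17, as before, 1.48% on chromosome 11 and 0% on chromosome 2. The single dip bin of chromosome 2 thus depends on the grid, while chromosome 11 had 2 bins below 1 on the moved grid instead of 1. With 50 kb on each side the edge step at the end of chromosome 17 turned to -0.50, and the starts of chromosomes 17, 11 and 2 moved to 0.44, 0.44 and 0.69. The lengths under bridged bins, added after seeing the data, moved in 3 of 6 cases. The cause of these shifts was not tested.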
